A study of Mus musculus with 6 samples.

Results

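The *Kcnq1* domain on mouse chromosome 7 and the *Igf2r* domain on chromosome 17 are imprinted gene groups that are each silenced in *cis* by a long antisense RNA, *Kcnq1ot1* and *Airn*. The promoter of the antisense RNA is the imprinting control region (ICR) of its domain. Binding of ZFP57 and KAP1 was examined at 8 genes, which are *Kcnq1*, *Cdkn1c*, *Phlda2*, *Slc22a18* and *Ascl2* in the first domain and *Igf2r*, *Slc22a2* and *Slc22a3* in the second. All ChIP-seq peaks that touched the body of 1 of these genes or the 20 kb on either side of it were taken from the 4 deposited peak lists. They were 35 peaks of 123233 in all. The ZFP57 list gave 3 peaks of 10667 in JB1 and 2 of 1318 in BJ1, and the KAP1 list gave 7 of 38713 in JB1 and 23 of 72535 in BJ1.

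JB1 and BJ1 are male hybrid embryonic stem cell (ESC) lines, untreated and grown without feeder cells in medium with serum and LIF, whose serum content is given differently in the sample labels and in the methods. In JB1 the maternal genome is that of strain JF1 and the paternal genome that of strain B6, and BJ1 is the reciprocal cross. Each line was immunoprecipitated with an antibody against ZFP57 and with an antibody against KAP1, and there was 1 ChIP library per line and antibody, so that no spread between replicates can be given and no difference between the lines was tested. There was 1 line per cross, and a difference between their lists in parent of origin, in line or in library cannot be told apart.

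Genomic imprinting is the expression of a gene from the allele of 1 parent. Both ICRs carry DNA methylation on the maternal allele, where the antisense RNA is silent, whereas on the unmethylated paternal allele the antisense RNA is transcribed and the genes around it are repressed. ZFP57 is a zinc-finger protein that binds a short motif when its CpG is methylated, and KAP1 (TRIM28) is the co-repressor that it recruits together with histone methyltransferases, which keeps the methylation of ICRs through early development. In these domains *Igf2r* and *Cdkn1c* are imprinted in many tissues, whereas *Ascl2*, *Slc22a2* and *Slc22a3* are imprinted mainly in the placenta. Expression was not examined here, and whether the genes called silenced below are silenced in JB1 and BJ1 cannot be told from the lists.

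The sequences that carry the comparison of the ICRs with the silenced genes are the runs of closely spaced ZFP57 motifs. The motif TGCCGC and its variant GGCCGC were searched as exact matches of 6 bp on both strands (GCGGCA and GCGGCC on the opposite strand) of the B6 reference genome, assembly mm9, and overlapping matches were all counted. Motifs, 2 or more, were called a cluster where each start lay less than 38 bp from the next. Capitals mark the motifs, and all sequences are written 5′ to 3′. The first sequence is the cluster of 4 motifs of the *Kcnq1ot1* ICR at chr7:150481554-150481701, in an intron of *Kcnq1*, and the next pair are the clusters of the *Airn* ICR at chr17:12934618-12934671 and chr17:12935204-12935270, in intron 2 of *Igf2r*. All 3 are on the plus strand and include 20 bp on either side.
*Kcnq1ot1* ICR cluster: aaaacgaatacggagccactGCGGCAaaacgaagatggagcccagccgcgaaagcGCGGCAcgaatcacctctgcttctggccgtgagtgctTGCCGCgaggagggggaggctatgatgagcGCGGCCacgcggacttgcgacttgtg
*Airn* ICR cluster nearer to the start: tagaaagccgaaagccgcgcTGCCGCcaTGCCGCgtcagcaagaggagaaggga
*Airn* ICR cluster farther from the start: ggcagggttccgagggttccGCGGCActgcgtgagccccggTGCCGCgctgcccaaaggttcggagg

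Clusters also lie at the silenced genes, and those shown here had no ZFP57 peak in either line. The *Ascl2* cluster lies in the coding sequence at chr7:150154171-150154197, and the *Kcnq1* cluster lies upstream of the gene at chr7:150291618-150291654. Both were inside a KAP1 peak of BJ1. The *Cdkn1c* cluster, in intron 2 at chr7:150645335-150645460, the *Phlda2* cluster, at the gene's start at chr7:150688428-150688449, and the *Igf2r* cluster, in the coding part of the first exon at chr17:12962306-12962370, were in no peak of any of the 4 lists. All are written on the plus strand.
*Ascl2* cluster: gccgtGCGGCAcgtgcTGCCGCagcgc
*Kcnq1* upstream cluster: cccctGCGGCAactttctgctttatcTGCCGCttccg
*Cdkn1c* cluster: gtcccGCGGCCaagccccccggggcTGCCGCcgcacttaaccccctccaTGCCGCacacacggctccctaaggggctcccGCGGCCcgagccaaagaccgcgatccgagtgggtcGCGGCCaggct
*Phlda2* cluster: ctgcgGGCCGCGGCCGCggcgt
*Igf2r* cluster: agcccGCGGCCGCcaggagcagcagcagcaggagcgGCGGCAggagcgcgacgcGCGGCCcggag

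The start sites of the antisense RNAs were placed by the RefSeq promoter sequences (250 bases before to 50 bases after the start), which each matched mm9 exactly at 1 place over all 300 bases. *Kcnq1ot1* starts at position 150482452 of chromosome 7 and runs on the minus strand, and its promoter sequence is chr7:150482403-150482702. *Airn* starts at position 12934177 of chromosome 17, the same start that GENCODE M1 gives, and runs on the plus strand, with its promoter sequence at chr17:12933927-12934226. The promoter sequences are shown on the strand of transcription because they held 0 motifs of either kind, and all the motifs of the ICRs lay beyond them on the transcribed side.
*Kcnq1ot1* promoter: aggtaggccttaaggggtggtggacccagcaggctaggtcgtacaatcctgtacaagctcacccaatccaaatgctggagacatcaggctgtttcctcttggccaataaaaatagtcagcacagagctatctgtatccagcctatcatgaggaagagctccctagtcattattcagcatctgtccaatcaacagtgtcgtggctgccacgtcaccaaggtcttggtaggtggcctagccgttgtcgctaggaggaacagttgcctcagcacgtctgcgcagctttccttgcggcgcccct
*Airn* promoter: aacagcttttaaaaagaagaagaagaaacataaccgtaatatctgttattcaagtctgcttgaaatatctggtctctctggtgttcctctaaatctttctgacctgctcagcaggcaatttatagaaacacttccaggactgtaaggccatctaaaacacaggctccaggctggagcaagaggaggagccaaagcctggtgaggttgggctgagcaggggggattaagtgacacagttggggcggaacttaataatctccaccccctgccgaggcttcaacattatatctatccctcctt

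The lists give the position of each peak and no height, enrichment or *P*-value, and the read depth behind them is unknown. Peaks lie on a grid of 150 bp, are at least 300 bp wide in all 4 lists and have a median width of 450 bp in both ZFP57 lists and 600 bp in both KAP1 lists. A peak that is missing from the shorter list of an antibody was therefore not called in that library, and whether the protein was bound there cannot be known from the list.

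Both ICRs had a peak in all 4 lists, and they were the only places in the 2 domains where ZFP57 was found in both lines. At the *Kcnq1ot1* ICR the ZFP57 peak was 750 bp wide in JB1 (chr7:150481201-150481950) and 600 bp in BJ1 (chr7:150481351-150481950). The KAP1 peak around it was 1200 bp wide in JB1 (chr7:150481051-150482250) and 1050 bp in BJ1 (chr7:150481201-150482250). These peaks lie in intron 11 of the longest GENCODE M1 transcript of *Kcnq1*, which encodes the pore-forming subunit of a voltage-gated potassium channel. None of the 4 reached the start of *Kcnq1ot1*. The ZFP57 peaks began 502 bp downstream of it and the KAP1 peaks 202 bp downstream.

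At the *Airn* ICR the ZFP57 peak was 1650 bp wide in JB1 (chr17:12934051-12935700) and 1050 bp in BJ1 (chr17:12934651-12935700). The KAP1 peak was 1950 bp wide in both lines (chr17:12934051-12936000 in JB1 and chr17:12933901-12935850 in BJ1). The region is intron 2 of *Igf2r*, the receptor that clears the growth factor IGF2 from the cell surface. Here the JB1 ZFP57 peak and both KAP1 peaks spanned the antisense start, whereas the BJ1 ZFP57 peak began 474 bp downstream of it. The ZFP57 peaks of the lines ended at the same position, 1523 bp downstream. The stretch common to all 4 lists was 1050 bp at *Airn* and 600 bp at *Kcnq1ot1*, and in both cases it was the BJ1 ZFP57 peak itself.

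**Figure D1:**
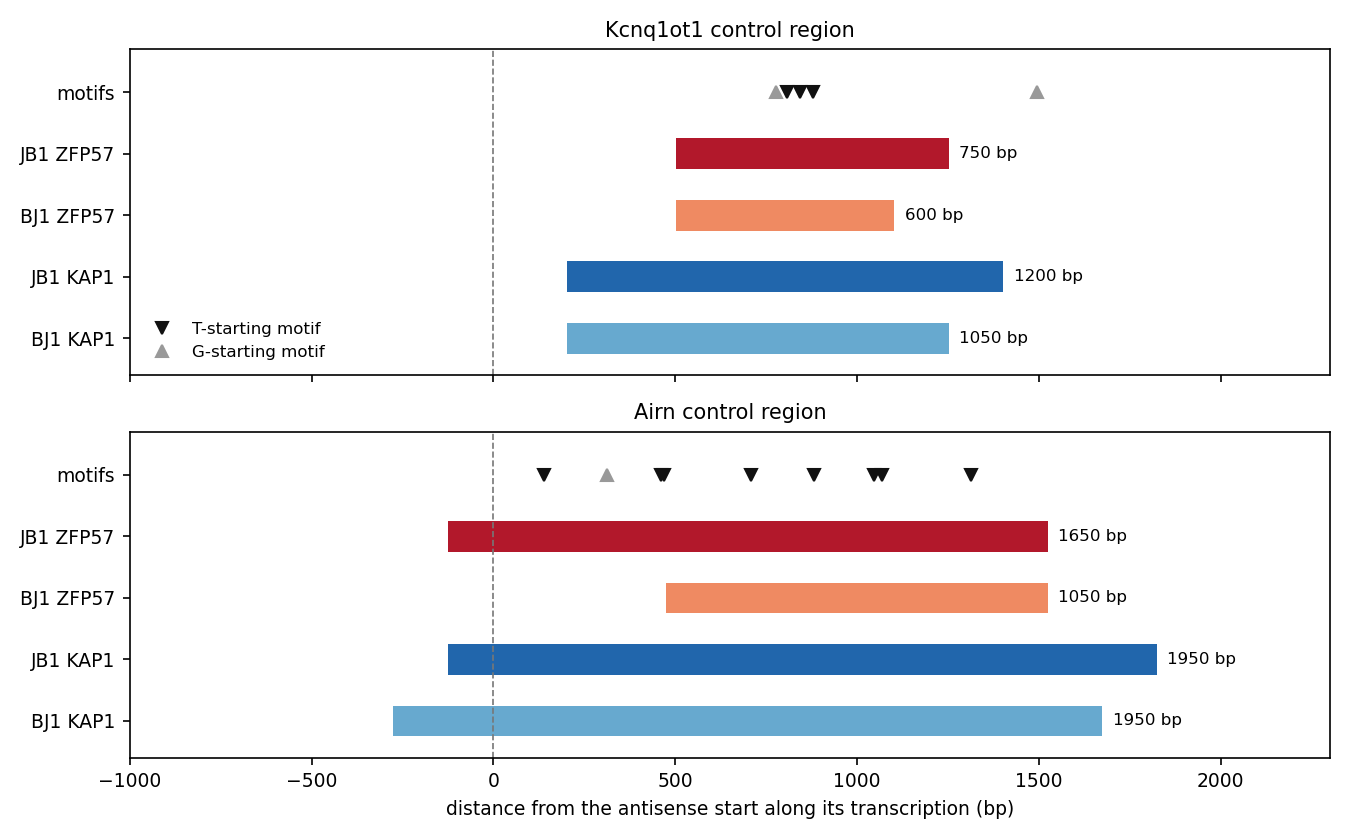
Peaks of the 4 lists (bars, with their width) and ZFP57 motifs (triangles; T-starting is TGCCGC and G-starting is GGCCGC) at the *Kcnq1ot1* and *Airn* ICRs, by distance in bp from the antisense start (dashed line) along its transcription. The motifs within 2 kb lie downstream of the start at both ICRs, and the 4 motifs in the *Kcnq1ot1* peaks lie between 776 and 878 bp from it.

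The peaks of *Airn* were among the wider of their lists, those of *Kcnq1ot1* less so. In JB1, 1.8% of all ZFP57 peaks were at least as wide as the *Airn* peak and 16.6% at least as wide as the *Kcnq1ot1* peak. In BJ1 these shares were 3.72% and 28.8%. For KAP1 the *Airn* peak was matched or exceeded in width by 9% of the list in JB1 and 5.38% in BJ1, and the *Kcnq1ot1* peak by 18.9% and 18.2%. *Airn* was wider than *Kcnq1ot1* in each of the 4 lists, and the difference of 450 bp in the BJ1 ZFP57 list is 3 steps of the grid.

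The promoters of 10 genes at other maternally methylated ICRs (*Snrpn*, *Peg3*, *Plagl1*, *Grb10*, *Zrsr1*, *Peg10*, *Mest*, *Nap1l5*, *Nnat* and *Gnas*) gave a measure of what is usual for an ICR. All 10 of 10 had a peak of each list within 2 kb of a start. The summed width of their ZFP57 peaks ran from 600 to 2250 bp in JB1, with a median of 1275 bp, and from 750 to 1950 bp in BJ1, with the same median. Most of these sums cover more than 1 start, over up to 26935 bp. They join 3 ZFP57 peaks of *Gnas* and 2 of *Peg3* in JB1, and 2 of *Gnas* in BJ1. By contrast, *Kcnq1ot1* and *Airn* had 1 peak per list. Against these sums the *Kcnq1ot1* peak was narrower than 8 of the 10 in JB1 and narrower than all 10 in BJ1. The *Airn* peak was wider than 8 in JB1 and wider than 3 in BJ1. By KAP1 the *Kcnq1ot1* peak was narrower than 7 of the 10 in JB1 and 9 in BJ1, and the *Airn* peak was wider than 6 in both lines. The KAP1 sums join 3 peaks of *Gnas* in JB1 and 4 in BJ1. The *Kcnq1ot1* peaks thus lay toward the low end of the summed widths, which is no rank among single peaks. The place of *Airn* changed with the line for ZFP57 and not for KAP1. *Zrsr1*, *Peg10* and *Nap1l5* were searched over the same 4001 bp as *Kcnq1ot1*. Their single ZFP57 peaks were 1200, 600 and 900 bp wide in JB1, and 1050, 750 and 750 bp in BJ1.

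Of the 3 JB1 ZFP57 peaks in the domains, 2 overlapped a ZFP57 peak of BJ1, against 5.4% of the whole JB1 list, and both of the BJ1 peaks were found in JB1, against 43.6% of the BJ1 list. The same 2 regions overlapped KAP1 in the same line, against 60.5% of the ZFP57 peaks of JB1 and 55.7% of those of BJ1. A ZFP57 peak with ZFP57 in BJ1 and KAP1 in both lines, the criterion of the study for a ZFP57 site, made up 5.11% of the JB1 list. With 3 and 2 peaks these shares have wide exact (Clopper-Pearson) 95% confidence intervals, 9.43 to 99.2% for 2 of 3 and 15.8 to 100% for 2 of 2, which cover counting error only.

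The third ZFP57 peak was seen in JB1 alone. It was 450 bp wide, lay in intron 10 of *Kcnq1* (chr7:150427651-150428100), 54352 bp from the start of *Kcnq1ot1*, and overlapped KAP1 in neither line. It held 0 motifs and 1 CpG, and 68.3% of the JB1 list was at least as wide. The narrowest ICR peak, that of ZFP57 at *Kcnq1ot1* in BJ1, was 600 bp wide, 1 step of the grid more, and held 4 motifs and 46 CpGs.

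The motifs differed in number and in spacing between the ICRs. The *Kcnq1ot1* ZFP57 peak held 3 TGCCGC and 1 GGCCGC in both lines, and all 4 formed a single cluster, with starts 35, 37 and 30 bp apart. One more GGCCGC lay 1496 bp from the start and was in no peak. The *Airn* peak of JB1 held 8 TGCCGC and 1 GGCCGC, between 140 and 1314 bp from the start, and only 4 of them were in clusters, a pair with starts 8 bp apart and a pair 21 bp apart. The shorter BJ1 peak held 5 motifs, all TGCCGC, and the second of these clusters. The first cluster ends on the first base of the BJ1 ZFP57 peak and so was not inside it, although the BJ1 KAP1 peak covered it.

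As many motifs as in the *Airn* peak were found in 0.15% of the JB1 ZFP57 peaks, and as many as in the *Kcnq1ot1* peak in 1.7%. In BJ1 the shares were 3.41% and 6.22%. A motif cluster was found in 6.07% of all ZFP57 peaks of JB1 and in 14.9% of those of BJ1, and in both of the ICR peaks in each line. No JF1 sequence was used here, so that the motifs are those of the B6 allele.

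The genes that the antisense RNAs silence were then compared with the ICRs over the same distance, 2 kb on either side of every annotated start. The ICRs had a peak at 2 of 2 promoters in each of the 4 lists. The 8 genes had a ZFP57 peak at 0 promoters in JB1 and at 0 in BJ1, where 1.36% and 0.402% of all 22367 promoters of protein-coding genes had one, so that a count of 0 of 8 is near this background. For KAP1 they had a peak at 1 promoter in JB1 and at 4 in BJ1, against 6.65% and 20.9% of all promoters. The gene with KAP1 in both lines was *Slc22a3*, and 6% of all promoters had KAP1 in both lines.

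*Slc22a3* and *Slc22a2* encode organic cation transporters. The KAP1 peak of *Slc22a3* lay just upstream of the gene, 231 bp from its start in JB1 (chr17:12700801-12701400, 600 bp) and 81 bp from it in BJ1 (chr17:12700651-12701400, 750 bp). It held 0 motifs in both lines and 12 and 15 CpGs, and had no ZFP57. *Slc22a2* and *Igf2r* had no peak of any list within 2 kb of a start, although *Igf2r* contains the ICR.

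In the *Kcnq1* domain the promoter peaks were those of KAP1 in BJ1 alone. At *Ascl2*, a basic helix-loop-helix transcription factor needed for the placenta, the peak was 1200 bp wide and lay over the coding sequence (chr7:150153151-150154350), 819 bp from the start. It held 4 motifs, of which the pair shown above formed a cluster, and 102 CpGs. At *Cdkn1c*, an inhibitor of cyclin-dependent kinases that restrains growth, the peak was 600 bp wide and also lay over coding sequence (chr7:150645601-150646200), 755 bp from the start, with 2 GGCCGC, no cluster and 66 CpGs. At *Kcnq1* the peak was 450 bp wide and lay 1259 bp upstream of the start (chr7:150291451-150291900), with 3 TGCCGC, a cluster and 8 CpGs. *Phlda2*, which restrains growth of the placenta, and *Slc22a18*, a transporter gene, had no peak at a promoter or in the gene body in any list.

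**Figure D2:**
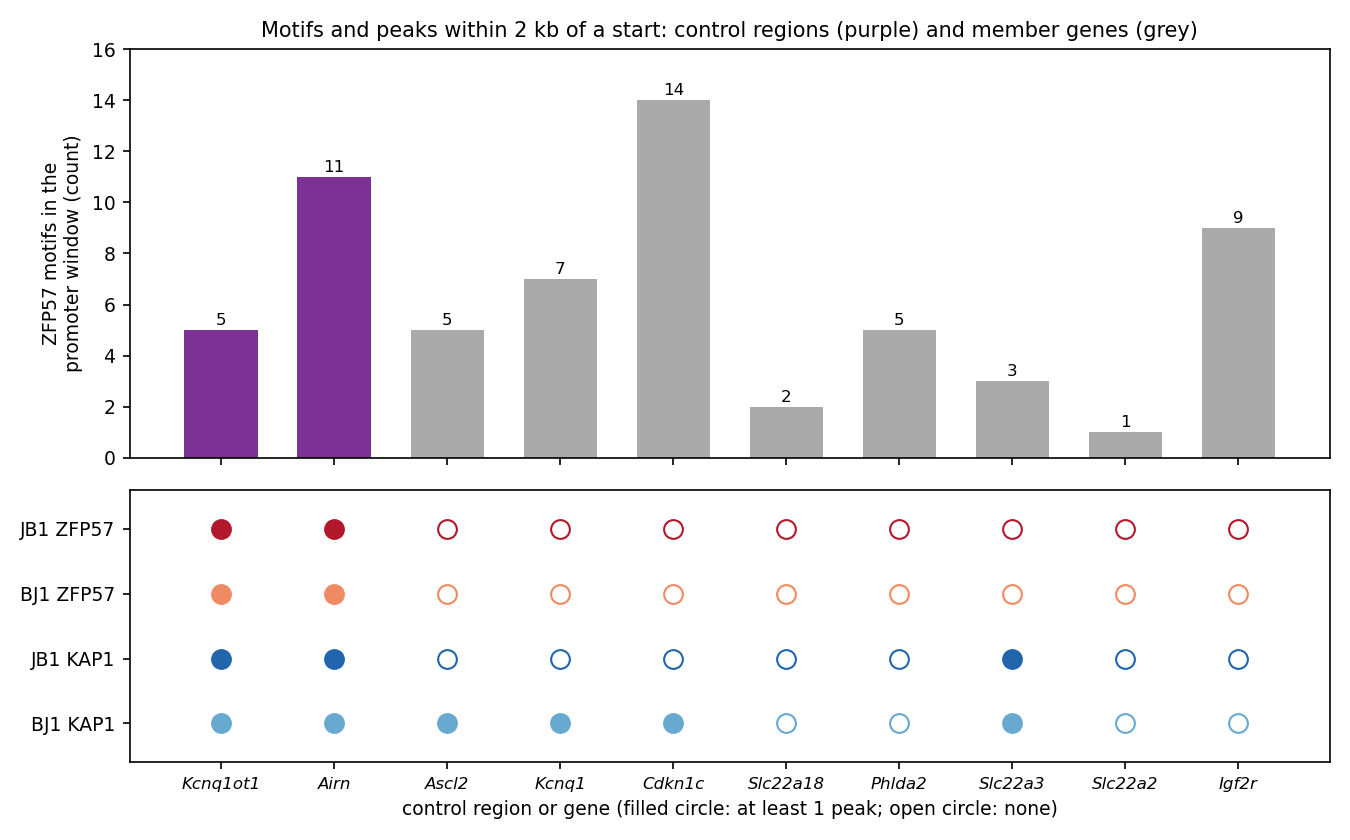
ZFP57 motifs (bars, count; TGCCGC and GGCCGC on both strands) within 2 kb of any annotated start of the antisense RNAs (purple) and the 8 genes (grey), with the lists that had a peak there (filled circles) below. ZFP57 circles are filled at *Kcnq1ot1* and *Airn* alone, although *Cdkn1c* has 14 motifs and *Kcnq1ot1* 5 over the same length of 4001 bp; *Airn*, *Kcnq1*, *Slc22a18* and *Igf2r* have several starts and 5381 to 12615 bp.

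The number of motifs near a start did not order the promoters by ZFP57. Over the same length of 4001 bp around a single start, *Kcnq1ot1* held 5 motifs, *Cdkn1c* 14, *Ascl2* and *Phlda2* 5 each, *Slc22a3* 3 and *Slc22a2* 1. The promoters with several annotated starts cover more sequence, and their counts cannot be ranked with these. *Airn* held 11 motifs in 8089 bp, *Igf2r* 9 in 12615 bp, *Kcnq1* 7 in 8299 bp and *Slc22a18* 2 in 5381 bp. A cluster was present at 5 of the 8 promoters (*Ascl2*, *Kcnq1*, *Cdkn1c*, *Phlda2* and *Igf2r*), against 29% of all promoters of protein-coding genes, and *Cdkn1c* had 2. TGCCGC made up 3 of the 5 motifs of *Kcnq1ot1* and 10 of the 11 of *Airn*. Among the genes it was 4 of 5 at *Ascl2*, 4 of 7 at *Kcnq1*, 3 of 14 at *Cdkn1c*, 3 of 9 at *Igf2r*, 1 of 5 at *Phlda2*, 1 of 3 at *Slc22a3*, 1 of 2 at *Slc22a18* and the single motif of *Slc22a2*, so that the genes overlapped the ICRs in this share.

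CpG number did not order them either. The 4001 bp around the 5′-most start held 113 CpGs at *Kcnq1ot1* and 114 at *Airn*. *Cdkn1c* with 298, *Ascl2* with 201, *Phlda2* with 151, *Igf2r* with 149, *Kcnq1* with 126 and *Slc22a3* with 115 had more, and *Slc22a2* with 62 and *Slc22a18* with 39 had fewer. Within the ICR windows the CpGs were unevenly placed, since the JB1 ZFP57 peak of *Airn* alone held 96 and that of *Kcnq1ot1* 53.

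The domains held more motif clusters than an average stretch of the genome. Over the windows of the 8 genes, 817 kb in all, there were 192 motifs and 18 clusters, which is 1 cluster per 45.4 kb, whereas the 16156 clusters of the genome are 1 per 164 kb. The *Kcnq1* domain had 15 clusters (1 per 31.8 kb) and the *Igf2r* domain 3 (1 per 113 kb). The genome figure includes sequence far from genes, and windows of other genes were not counted. Whether the domains differ from other gene windows was therefore not tested. Inside ZFP57 peaks were 3 of the 18 in JB1 and 2 in BJ1, all at the ICRs, against 4.15% and 1.35% of the clusters of the genome. Inside KAP1 peaks were the same 3 in JB1 and 5 in BJ1, the additional pair being those of *Ascl2* and *Kcnq1*, against 13.6% and 16.5% of the clusters of the genome.

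In all, 5 of the 18 clusters were inside a peak of any list, against 17.6% of those of the genome, and 13 were in no peak, against 82.4%. With TGCCGC alone 7 clusters remained in the windows (1 per 117 kb, against 1 per 1130 kb over the genome), and the larger part was then inside a peak, 5 of the 7, with 2 in no peak, against 77.3% of such clusters in no peak over the genome. Of the 13 clusters of either motif in no peak, 12 were in the *Kcnq1* domain. GGCCGC alone formed 7 of them, TGCCGC alone 1, and both motifs 5. The longest, with 5 motifs, was the cluster in intron 2 of *Cdkn1c* shown above, 1500 bp from the start of the gene, and a shorter one of 2 motifs lay 176 bp from the same start. The longest ends at position 150645455, just short of the BJ1 KAP1 peak of *Cdkn1c*, which begins at 150645601. The *Phlda2* cluster was 3 overlapping GGCCGC matches 2 bp from the start, and the *Igf2r* cluster of 4 motifs was 165 bp from the start of that gene. By number of motifs the *Cdkn1c* and *Igf2r* clusters were at least as large as the *Kcnq1ot1* cluster, which was inside a ZFP57 peak in both lines. By TGCCGC alone the *Kcnq1ot1* cluster was the largest of these, with 3, against 2 at *Cdkn1c* and 1 at *Igf2r*.

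Apart from the ICRs, the peaks found in both lines within the gene windows were all KAP1 peaks of the *Igf2r* domain. They were 5 regions without ZFP57, 450 to 900 bp wide in JB1 and 600 to 1200 bp in BJ1. One was the *Slc22a3* promoter peak. A pair lay upstream of *Slc22a2*, 18805 and 17905 bp from its start in JB1 (chr17:12757351-12758250 and chr17:12758701-12759150). The others were in intron 2 (chr17:12789901-12790350 in JB1, with 1 GGCCGC) and intron 10 (chr17:12817351-12817950 in JB1) of *Slc22a2*. None held a cluster, and 4 of the 5 held no motif, where 60.6% of all KAP1 peaks of JB1 and 72% of those of BJ1 held none.

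In the gene windows of the *Kcnq1* domain the KAP1 list of JB1 had no peak other than that of the ICR. Over these windows this is 2.09 peaks per Mb, against 14.6 over the genome, whereas the windows of the *Igf2r* domain had 6 peaks, or 17.7 per Mb. In BJ1 the windows of the *Kcnq1* domain had 10 KAP1 peaks, or 20.9 per Mb, and those of the *Igf2r* domain 13, or 38.3 per Mb, against 27.3 over the genome. ZFP57 peaks were 4.19 and 2.95 per Mb in JB1, against 4.02, and 2.09 and 2.95 per Mb in BJ1, against 0.496. The densities rest on a few peaks each, and that of JB1 KAP1 in the *Kcnq1* domain on 1.

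**Figure D3:**
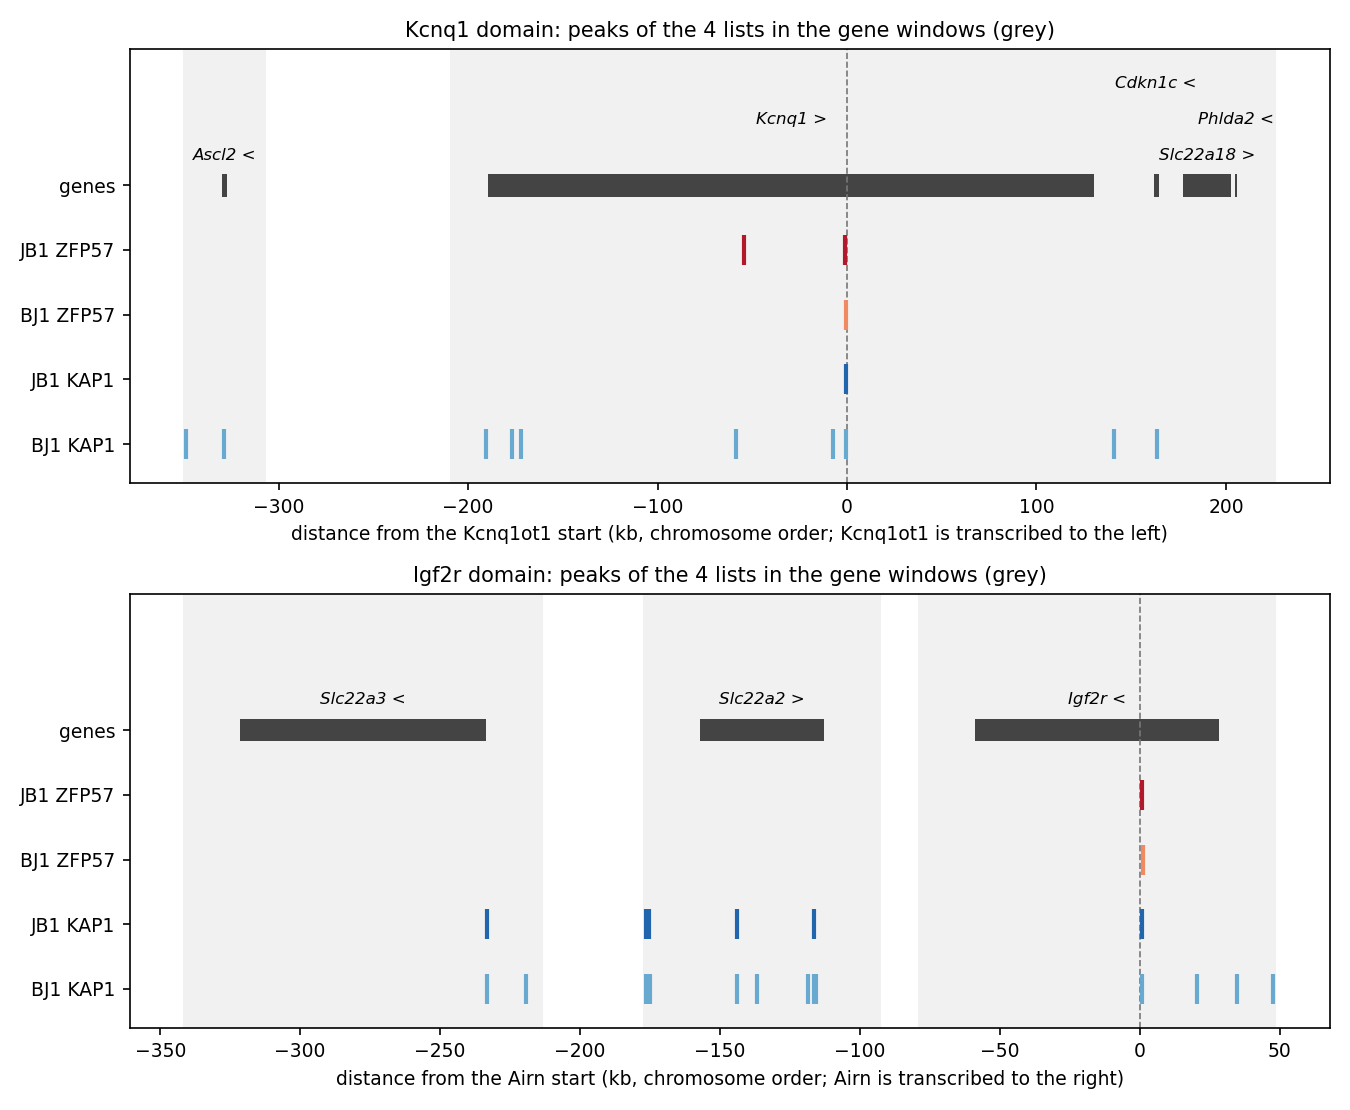
Position of the 35 peaks (vertical marks) in the windows (grey) of the 8 genes, by distance in kb from the *Kcnq1ot1* and the *Airn* start (dashed line), with genes as dark bars and the direction of transcription as < or >. Marks of all 4 lists line up only beside the antisense starts, and 9 of the 10 BJ1 KAP1 marks in the *Kcnq1* domain have none of JB1 KAP1 above them.

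All 7 KAP1 peaks of JB1 overlapped a KAP1 peak of BJ1 (exact 95% confidence interval 59 to 100%), against 85.9% of the whole list. In the other direction 7 of the 23 BJ1 peaks were found in JB1, which is 30.4% (13.2 to 52.9%), against 45.3% of the list. By domain they were 1 of 10 in *Kcnq1* (10%, 0.253 to 44.5%) and 6 of 13 in *Igf2r* (46.2%, 19.2 to 74.9%). The intervals cover counting error only, and neighbouring peaks of 1 library are not independent, so that no difference from the list or between the domains was tested. A KAP1 peak overlapped ZFP57 of the same line in 2 of 7 cases in JB1 and 2 of 23 in BJ1, against 14.1% and 1% of these lists, and these were the ICR peaks.

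The 16 KAP1 peaks of BJ1 alone were 9 in the *Kcnq1* domain and 7 in the *Igf2r* domain, 300 to 1200 bp wide with a median of 450 bp. Besides the promoter peaks of *Ascl2*, *Cdkn1c* and *Kcnq1*, those of the *Kcnq1* domain lay in intron 1 (chr7:150305551-150306150 and chr7:150309901-150310650), intron 10 (chr7:150423751-150424050) and intron 11 (chr7:150474901-150475500) of *Kcnq1*, between *Kcnq1* and *Cdkn1c* (chr7:150623251-150623550) and 21219 bp from the start of *Ascl2* (chr7:150133351-150133950). The peak of intron 11 lay 6952 bp from the start of *Kcnq1ot1*, in the direction of its transcription, and held 0 CpGs.

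In the *Igf2r* domain the BJ1 peaks lay in intron 3 (chr17:12797101-12797550) and intron 10 (chr17:12815401-12815850 and chr17:12818401-12818850) of *Slc22a2*, 14181 bp from the start of *Slc22a3* (chr17:12714751-12715050), and along *Airn*. The 3 along *Airn* were in intron 1 of *Igf2r* (chr17:12954451-12954900) and upstream of *Igf2r* (chr17:12968851-12969150 and chr17:12981451-12981750). In all, 11 of the 16 held no motif, near the 72% of the whole BJ1 KAP1 list without one.

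Base composition was compared between the ICR peaks and the others. The observed/expected CpG ratio is the number of CpGs times the length, divided by the product of the numbers of C and of G, and a ratio of at least 0.6, a limit chosen after the values were seen, was used to count CpG-rich peaks. All 8 ICR peaks, which are 2 regions each called in 4 lists, were above it, from 0.641 to 0.959. Of the 27 other peaks, 2 were above it, the BJ1 KAP1 peaks of *Cdkn1c* at 0.877 and *Ascl2* at 0.819, and the median of the 27 was 0.161. The 27 count 5 KAP1 regions in both lines. Overlapping peaks share their sequence, so that the peaks are not independent observations. By list, the CpG-rich peaks were 2 of 3 in JB1 ZFP57, 2 of 2 in BJ1 ZFP57, 2 of 7 in JB1 KAP1 and 4 of 23 in BJ1 KAP1, against 30.2%, 25%, 12.2% and 9.45% of all peaks of these lists.

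The median ratio of the KAP1 peaks in the domains was 0.435 in JB1 and 0.161 in BJ1, against 0.373 and 0.282 for the lists. For ZFP57 it was 0.675 in JB1 and 0.834 in BJ1, against 0.389 and 0.329. The *Kcnq1ot1* peaks, although narrower, had higher ratios than those of *Airn* in each list, 0.876 against 0.675 for ZFP57 in JB1 and 0.959 against 0.709 in BJ1. The KAP1 peak upstream of *Kcnq1*, which held a motif cluster, had a ratio of 0.295 and was not CpG-rich.

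**Figure D4:**
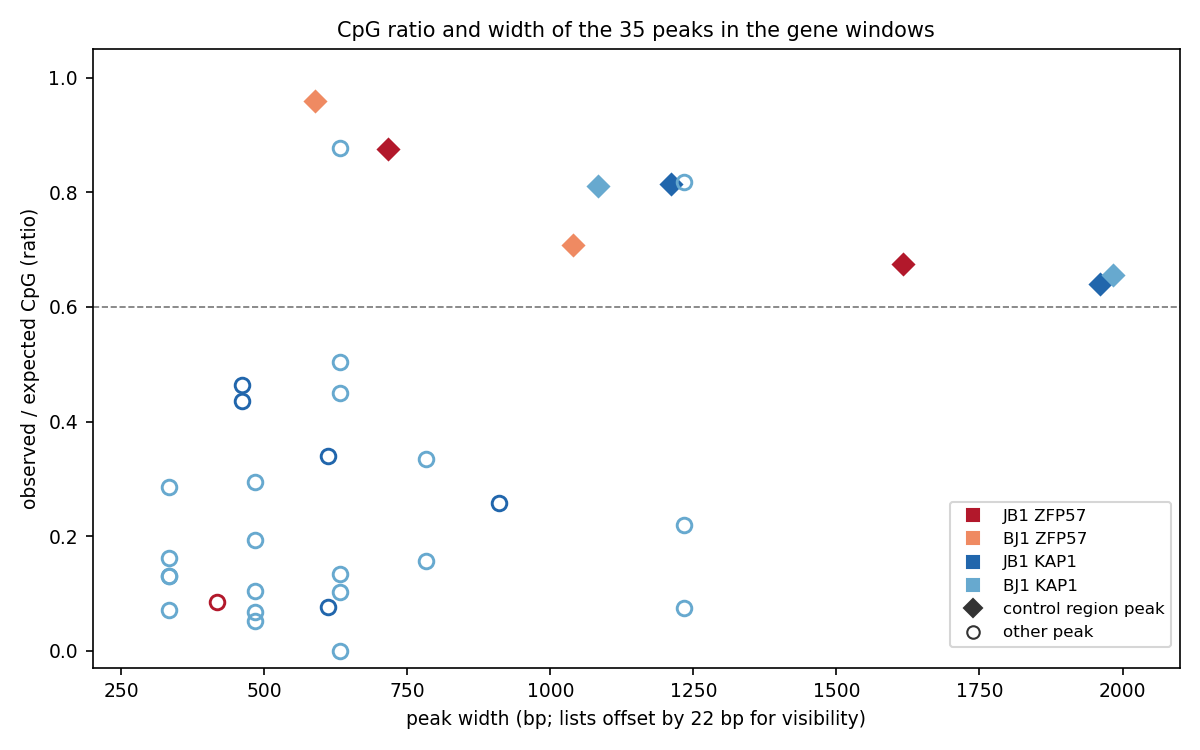
Observed/expected CpG ratio against width in bp of the 35 peaks, coloured by list, with ICR peaks as filled diamonds and the others as open circles; the dashed line is at 0.6. The ICR peaks, 2 regions drawn once per list, lie between 0.641 and 0.959, and 2 open circles, both of BJ1 KAP1, lie above the line.

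Neighbouring genes of the 2 domains, some of which are also imprinted in the placenta, were read in the same way. Of 24 gene records, 0 had a ZFP57 peak within 2 kb of a start in either line, 1 had KAP1 in JB1 and 6 in BJ1, close to the shares of all promoters given above. The record with KAP1 in both lines was 1 of the records named *Tnfrsf22*, with a peak of 600 bp in JB1 and 1050 bp in BJ1. The other promoters with KAP1 in BJ1 were those of *Cd81*, *Osbpl5*, *Mas1* and both records of *Park2*. *Nap1l4*, next to *Phlda2*, and *Tssc4*, beside *Cd81*, had no peak there in any list. *Wtap* held 14 motifs and 2 clusters in the 11124 bp around its 7 starts and had no peak of ZFP57 or KAP1.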

How the data were processed

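The authors trimmed 50 bp single-end reads (CASAVA 1.8.2, Trim Galore), aligned them to mm9 with Bowtie 0.12.7 and called peaks with MACS in each ChIP library. SAMtools 0.1.18 and bedtools 2.14.3-1 are also named in the submitters' processing notes. The deposited lists hold start and end positions, counted from 1, and neither scores nor counts, so that depth is unknown and no test across samples was possible. Of the 6 libraries, the 2 input libraries were not used here, nor were allele-specific reads.

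Genes and starts are from GENCODE M1. Peaks overlapped when they shared 1 bp. Motifs and clusters counted when wholly inside a peak. Overlap, motif and cluster searches were tested on simulated data. The members, gene lists and limits were chosen with earlier results of these data known. The genes named are the 8 members, both antisense RNAs, a list of neighbours and 10 other ICRs. Alternatives were other flanks, promoter widths, overlaps, motif distances and peak widths. Python 3.11.15, numpy 2.4.6, scipy 1.17.1 and matplotlib 3.10.9 were used.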

Additional observations from a re-analysis of the deposited data

How the results depend on the processing

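Of 53 alternative values of 18 results, 49 stayed within 1.5 times the value given. With a flank of 50 kb in place of 20 kb the KAP1 peaks of JB1 in the windows rose from 7 to 11, and among peaks at or above the median width of their list those of BJ1 fell from 23 to 13. With TGCCGC alone the clusters in the windows fell from 18 to 7, of which 5 were in a peak, in place of 5 of 18. With motif starts less than 25 bp apart the clusters inside a BJ1 ZFP57 peak fell from 2 to 1, since those of *Kcnq1ot1* are 30 to 37 bp apart. Both ICRs kept a peak of each list at 1 kb and at 5 kb, and the promoters of the 8 genes had no ZFP57 under any alternative. No paired analysis was possible because each line and antibody has 1 library. The depth of the libraries, which the lists do not give, limits every comparison between the lines.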

Other observations

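KAP1 peaks also lay between the windows of the 8 genes. In both lines a peak of 750 bp (chr7:150183451-150184200) lay 28282 bp from the start of *Ascl2*. Upstream of *Slc22a2*, where the outermost peak taken above lay 18655 bp from the start in BJ1, the next KAP1 peaks in both lines lay 25105 bp from it (chr17:12751351-12751950) and 26155 bp from it in JB1 (chr17:12750151-12750900). BJ1 had 3 more KAP1 peaks that JB1 did not have between *Ascl2* and *Kcnq1*, of which 1 was in an intron of *Tspan32* (chr7:150199351-150199800). None of these overlapped ZFP57.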
